A study of Homo sapiens with 4 samples.

Results

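The expression of 35 genes of glycolysis and of the response to low oxygen was followed in SUM159 cells treated with palbociclib, indisulam or both. The genes were given as a fixed list of symbols, chosen with earlier results of these data known. Each symbol matched 1 Ensembl gene of the 60279 in every count table. They comprised 17 glycolytic enzymes, 3 regulators of glycolysis, 13 targets of the hypoxia-inducible factors (HIF) that are not metabolic enzymes, and the genes of 2 HIF alpha subunits. All 35 reached a mean of at least 1 CPM, a read count scaled to the gene total of its library, as did 14269 genes in all, and these 14269 are called the tested genes below. SUM159 is an established triple-negative breast cancer cell line of mesenchymal character. Palbociclib blocks the kinases CDK4 and CDK6 of the cell cycle, and indisulam leads to degradation of the splicing factor RBM39. There was 1 library for each of untreated cells, palbociclib, indisulam and the combination, so no difference had a replicate check and no p-value was computed. The labels gave 0.5 µM palbociclib and 2 µM indisulam for 10 days, whereas the text on the series gave 2 µM palbociclib and 3 µM indisulam for 16 h in technical duplicates. Both were kept open, as was whether duplicates had been pooled. The labels named no low-oxygen treatment.

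Glycolysis splits glucose into pyruvate in the cytosol, and lactate dehydrogenase can turn that pyruvate into lactate. When oxygen is low, HIF alpha proteins escape hydroxylation by the EGLN prolyl hydroxylases, pair with ARNT and bind short DNA elements near genes of glycolysis, pH control, blood vessel growth and mitophagy. HIF alpha proteins are controlled largely through their stability, so the level of their mRNA is not a measure of their activity. Tumour cells often keep many of these genes active in the presence of oxygen.

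The libraries held between 12555908 and 16712174 counts in genes. Mitochondrially encoded genes took between 4.90% (indisulam) and 7.33% (palbociclib) of them. VIM, which marks mesenchymal cells, lay between 2643 and 4598 CPM, while ESR1, PGR, EPCAM and CDH1 had means of at most 1.2 CPM. ERBB2, which was listed with them as a gene that should be low in this line, had a mean of 126 CPM. In bulk RNA, fewer cells that express a gene and less RNA of it per cell cannot be told apart. The labels named no sequencing batch, so batch and condition cannot be told apart either.

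The promoters of 6 members that were called changed in the combination are shown, since a HIF element would be looked for there. Each sequence is the 180 bases before the transcription start, 5′ to 3′, from RefSeq on GRCh38.p14, and the capitals mark the core of the hypoxia response element, ACGTG or GCGTG, on either strand (CACGT or CACGC when it lies on the other strand). CA9, ALDOC and HK2 were lower in the combination than in untreated cells, and EGLN3, ADM and PFKFB4 were higher.
CA9, chr9:35673748-35673927, plus strand: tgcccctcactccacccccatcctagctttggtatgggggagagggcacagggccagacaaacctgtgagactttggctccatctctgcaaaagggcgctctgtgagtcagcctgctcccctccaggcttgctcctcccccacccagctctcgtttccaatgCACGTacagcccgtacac
ALDOC, chr17:28576896-28577075, minus strand: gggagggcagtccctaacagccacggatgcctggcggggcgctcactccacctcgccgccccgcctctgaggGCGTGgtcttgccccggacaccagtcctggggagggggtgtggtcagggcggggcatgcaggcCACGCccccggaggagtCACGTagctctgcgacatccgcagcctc
HK2, chr2:74833947-74834126, plus strand: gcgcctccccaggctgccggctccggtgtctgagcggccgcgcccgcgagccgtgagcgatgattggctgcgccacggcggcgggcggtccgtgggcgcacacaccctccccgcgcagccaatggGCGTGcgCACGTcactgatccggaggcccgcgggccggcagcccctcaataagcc
EGLN3, chr14:33951075-33951254, minus strand: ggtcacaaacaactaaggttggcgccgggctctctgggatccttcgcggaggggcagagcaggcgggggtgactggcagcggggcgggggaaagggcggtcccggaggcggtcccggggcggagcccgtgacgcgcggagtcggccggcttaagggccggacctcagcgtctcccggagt
ADM, chr11:10304893-10305072, plus strand: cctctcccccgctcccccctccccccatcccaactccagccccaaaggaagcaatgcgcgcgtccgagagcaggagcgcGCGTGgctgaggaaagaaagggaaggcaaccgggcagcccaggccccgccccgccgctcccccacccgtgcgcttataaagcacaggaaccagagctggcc
PFKFB4, chr3:48556804-48556983, minus strand: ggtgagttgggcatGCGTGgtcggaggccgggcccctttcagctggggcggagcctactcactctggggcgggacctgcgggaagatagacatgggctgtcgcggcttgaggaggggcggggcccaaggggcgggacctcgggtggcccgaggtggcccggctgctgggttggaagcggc

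In the sequences shown, ALDOC held 3 cores, HK2 held 2, CA9, ADM and PFKFB4 held 1 each and EGLN3 held none. A promoter window of 250 bases before and 50 after the start was at hand for 32 of the 35 members and not for VEGFA, NDRG1 and BNIP3L. A core was present in 25 of the 32 windows (78.1%), against 48.4% of all 35116 RefSeq windows of that length. By role, a core lay in 13 of 17 windows of enzymes, in all 3 of the regulators, in 7 of 10 of the HIF targets and in both of the HIF alpha genes. The core was found in 3 of 4 windows of members that were higher in the combination and in 3 of 3 of those that were lower. A match is a description of the sequence and not a bound site.

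Counts were divided by the library total, and each log2 ratio is given with its 95% interval of Poisson counting error in brackets. A gene is said to be called higher or lower where its ratio reached 2-fold and the interval stayed clear of 1. Palbociclib against untreated called 0 members higher and 2 lower, where 5.85% of the tested genes were called higher and 4.89% lower. Indisulam against untreated called 3 higher and 3 lower, where 8.39% and 6.69% of the tested genes were called. The combination against untreated called 5 higher (PFKFB4, VEGFA, ADM, EGLN3 and EPAS1) and 3 lower (HK2, ALDOC and CA9), where the shares of the tested genes were 12.9% and 10.5%. Against palbociclib, the combination called 4 higher (ENO2, PFKFB4, P4HA2 and EPAS1, or 3 without P4HA2 under 3 of 4 other scalings) and 0 lower, with 9.56% and 7.38% in the background. Against indisulam it called 1 higher (PFKFB4) and 0 lower, with 5.04% and 3.15% in the background. The shares of the 35 members that were called were thus close to those of all tested genes. Calls were rarer among the 2001 tested genes at 100 CPM or more, a level that many members reach. There, 45 were called higher and 48 lower with palbociclib, 85 and 69 with indisulam, and 139 and 126 with the combination. Between combination and palbociclib they were 101 and 96, and between combination and indisulam 22 and 33. The members at that level were not set against these genes separately. Of the 35 members, 10 were called in at least 1 of the 5 comparisons and 25 in none, where 33.9% of the tested genes were called in at least 1.

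**Figure D1:**
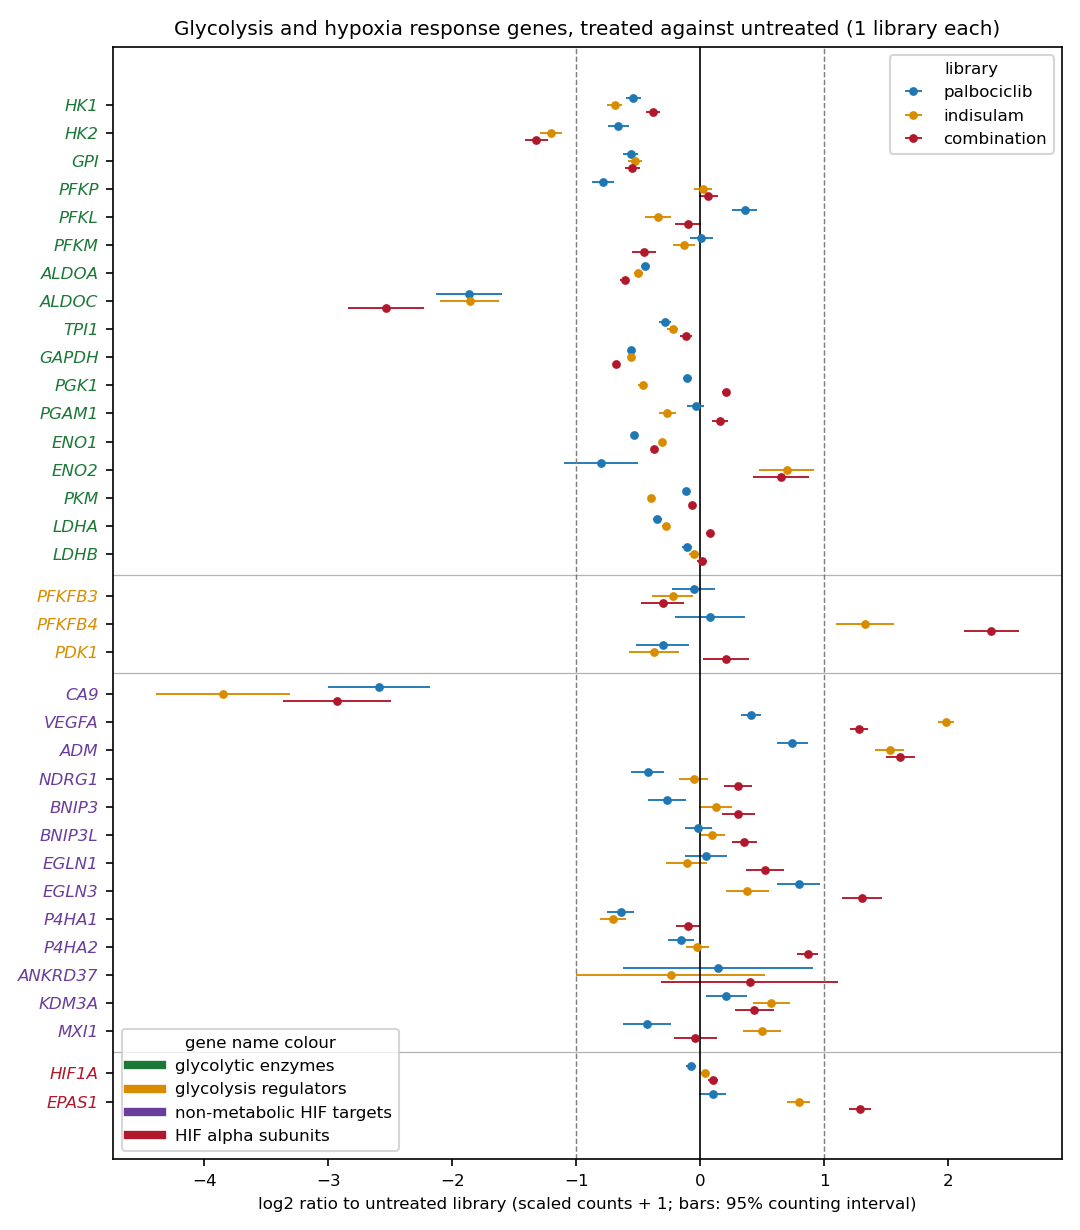
Log2 ratio to the untreated library (horizontal axis) of the 35 members (vertical axis) in the palbociclib, indisulam and combination libraries, with bars for the 95% counting interval and dashed lines at 2-fold. Most enzymes sit a little left of 0, while CA9 and ALDOC lie far to the left and PFKFB4, VEGFA, ADM, EGLN3 and EPAS1 lie to the right in the combination.

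The spread between libraries could not be measured, so an upper bound was taken from the 2 × 2 layout of the drugs. For each gene, the departure from additivity is what remains of the log2 ratio of combination to untreated once those of palbociclib and of indisulam are subtracted. The robust spread of this quantity over the tested genes of a CPM range holds noise and any interaction. Divided by the square root of 2, it bounds the spread of a single log2 ratio for the typical gene of that range. It does not limit a member that varies more than most genes of its range. The bound was 0.62 at 1 to 5 CPM, 0.37 at 5 to 20 CPM, 0.26 at 20 to 100 CPM and 0.28 above. A log2 ratio past 2 such bounds is said below to exceed the bound.

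The glycolytic enzymes as a group were slightly lower in all 3 treated libraries, and few of them changed by as much as 2-fold. Together the 17 enzymes took 1.69% of gene counts in untreated cells, 1.29% with palbociclib, 1.27% with indisulam and 1.36% with the combination. The summed level was 16908 CPM in untreated cells and differed from it by -23.6%, -24.9% and -19.7% in the 3 treated libraries. GAPDH supplied much of that sum, and without it the differences were -19.7%, -21.5% and -11.5%. The median log2 ratio of the enzymes was -0.44 for palbociclib, -0.34 for indisulam and -0.11 for the combination, beside -0.02, 0.06 and 0.05 over all tested genes. A ratio below 1 was found for 15 of 17 enzymes with palbociclib, 15 with indisulam and 11 with the combination (14 when scaled by TMM factors), against 51.7%, 45.4% and 47.1% of all tested genes and 57.4%, 48.7% and 51.3% of those at 100 CPM or more. These 3 comparisons share the untreated library, so a high enzyme level in that library would enter all of them. VIM, which is no enzyme, was also highest in the untreated library, at 4598 CPM against 2881, 3131 and 2643 CPM, and whether the 2 patterns are linked was not tested. Against palbociclib, the combination had a median of 0.12 over the enzymes, and against indisulam 0.04, with 6 and 8 of 17 below 1 (8 and 8 when scaled by TMM factors). These comparisons do not use the untreated library. The bound was exceeded downward by 6 enzymes with palbociclib (35.3%, against 10.6% of tested genes), by 3 with indisulam (17.6% against 12.1%) and by 4 with the combination (23.5% against 17.5%). With palbociclib, GPI and GAPDH passed by little (-0.562 and -0.561, where 2 bounds make 0.560) and under none of the 4 other scalings. With indisulam, GAPDH passed under all 4, at -0.632 to -0.575. GPI (-0.601) and ALDOA (-0.571) passed there under at least 1 of them, as did GPI with the combination (-0.642). These counts depend on the scaling, so they do not rank the drugs.

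The early steps of the pathway held the strongest fall among the abundant enzymes, that of HK2. Hexokinases trap glucose in the cell by phosphorylation, and HK2 is the inducible form that many tumours express. HK2 stood at 227 CPM in untreated cells, 143 with palbociclib, 98.4 with indisulam and 90.8 with the combination. It was called lower with indisulam (log2 ratio -1.21 [-1.29 to -1.12]) and with the combination (-1.32 [-1.42 to -1.23]). With palbociclib its log2 ratio was -0.66 [-0.75 to -0.58], under the 2-fold threshold but past the bound. HK1, the constitutive hexokinase, had 381 CPM in untreated cells and 263, 236 and 293 CPM in the treated libraries. HK1 was thus lowest with indisulam, at a log2 ratio of -0.69 [-0.75 to -0.63], and was not called in any comparison. GPI, which isomerises the product of hexokinase, lay at 395 CPM in untreated cells and between 268 and 274 CPM in the treated libraries.

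Phosphofructokinase commits the sugar to glycolysis and is built from platelet (PFKP), liver (PFKL) and muscle (PFKM) type subunits. PFKP had 213 CPM in untreated cells, 123 with palbociclib, 216 with indisulam and 223 with the combination, so that only the palbociclib library stood apart. Its log2 ratio was -0.79 [-0.88 to -0.70] for palbociclib against untreated. Between combination and palbociclib it was 0.85 [0.77 to 0.94]. Both exceeded the bound and neither reached 2-fold. PFKL was highest in that same library, at 145 CPM against 114 in untreated cells, 89.6 with indisulam and 106 with the combination. PFKM lay at 150 CPM in untreated cells, 150.4 with palbociclib, 136 with indisulam and 109 with the combination. The subunit genes thus ranged in different directions with palbociclib.

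Aldolase splits the sugar bisphosphate, and its A form is the general one while the C form is best known from brain. ALDOC had 515 counts in untreated cells, 142 with palbociclib, 188 with indisulam and 101 with the combination, or 41.0, 11.2, 11.2 and 7.03 CPM. It was called lower in all 3 treated libraries against untreated, with log2 ratios of -1.87 [-2.13 to -1.60], -1.86 [-2.10 to -1.62] and -2.53 [-2.84 to -2.23]. The untreated library was the high one, and the combination was a further 1.58-fold below palbociclib and 1.59-fold below indisulam, neither of which passed the threshold. ALDOA stood at 1097 CPM in untreated cells and at 807, 777 and 719 CPM in the treated libraries. Its log2 ratio of -0.61 [-0.65 to -0.57] in the combination exceeded the bound and stayed under 2-fold.

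None of the abundant genes of the later steps, TPI1, GAPDH, PGK1, PGAM1, PKM, LDHA and LDHB, was called in any of the 5 comparisons. GAPDH, which oxidises glyceraldehyde phosphate and is often used as a reference gene, was the most abundant member, with 5334 CPM in untreated cells, 3617 with palbociclib, 3618 with indisulam and 3338 with the combination. Its log2 ratios to untreated were -0.56 for either single drug, at the 0.560 that 2 bounds make, and -0.68 for the combination, past them. The combination differed from either single drug by -0.12. TPI1, PGK1, PGAM1 and PKM had log2 ratios to untreated between -0.46 and 0.21. PGK1, which makes the first ATP of the pathway, exceeded the bound once, at 711 CPM with indisulam and 1133 CPM with the combination (log2 ratio 0.67 [0.64 to 0.71]). LDHA, the main form that makes lactate, had 1195 CPM in untreated cells, 940.2 with palbociclib, 987 with indisulam and 1263 with the combination. LDHB, the form that favours pyruvate, stayed between 743 and 808 CPM. GAPDH has 65 annotated pseudogenes by symbol, PGAM1 13, LDHA 6 and PKM 5, and reads that fit several places were not counted, so these genes may be undercounted.

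Among the 17 enzymes, ENO2 was the gene called higher. ENO2 (chr12:6913745-6923698, plus strand, GRCh38), the neuron-type enolase, had 243 counts in untreated cells, 141 with palbociclib, 525 with indisulam and 437 with the combination, or 19.4, 11.1, 31.4 and 30.4 CPM. It was called higher for the combination against palbociclib, at a log2 ratio of 1.45 [1.17 to 1.72]. The libraries with indisulam were the high ones, but against untreated its log2 ratios of 0.70 [0.48 to 0.92] and 0.65 [0.43 to 0.88] did not reach 2-fold. ENO1, the general form, had 2903 CPM in untreated cells, 2006 with palbociclib, 2346 with indisulam and 2246 with the combination.

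**Figure D2:**
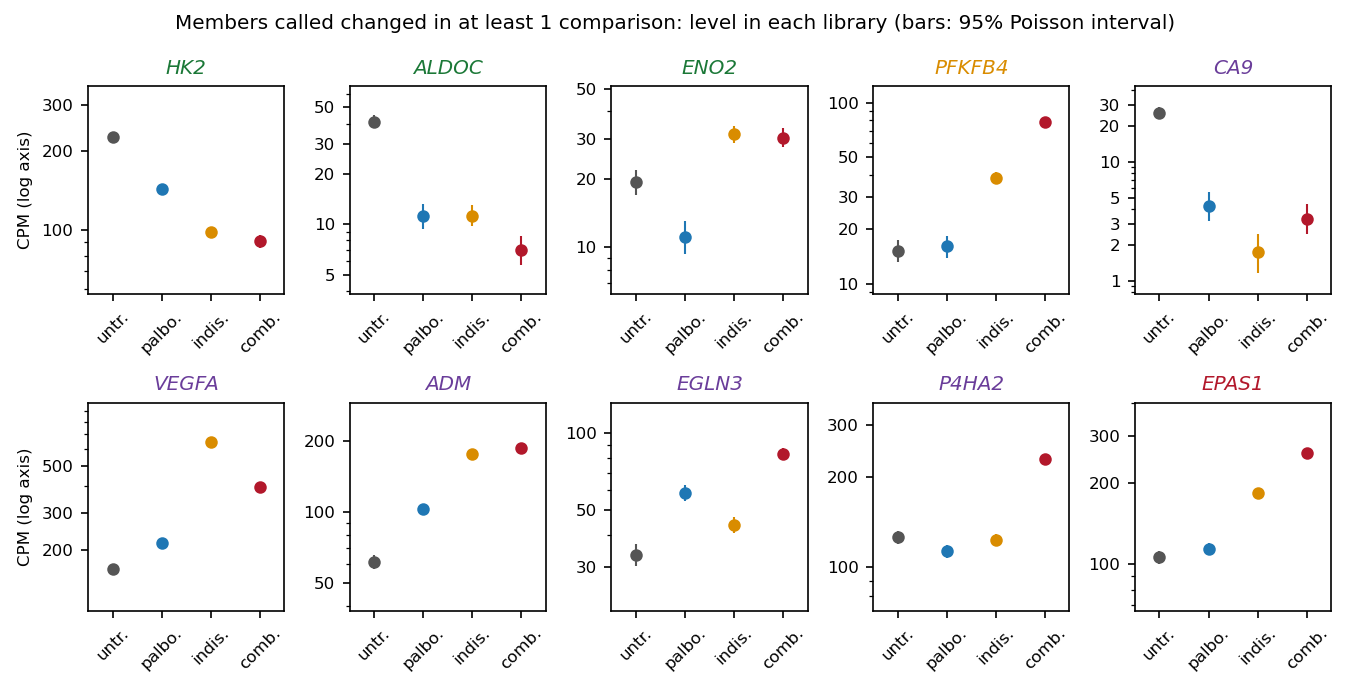
Level in CPM (vertical log axis, with its own range in each panel) of the 10 members called in at least 1 comparison in the untreated, palbociclib, indisulam and combination libraries, with bars for the 95% Poisson interval. HK2, ALDOC and CA9 are highest in untreated cells, whereas PFKFB4, EGLN3, P4HA2, ADM and EPAS1 are highest in the combination and VEGFA with indisulam.

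Among the regulators of glycolysis, PFKFB4 gave the largest rise of all members. PFKFB enzymes make and remove the fructose bisphosphate that activates phosphofructokinase. PFKFB4 had 191 counts in untreated cells, 204 with palbociclib, 640 with indisulam and 1117 with the combination, or 15.2, 16.1, 38.3 and 77.8 CPM. No difference between untreated and palbociclib cells was detectable at this depth (log2 ratio 0.08 [-0.20 to 0.36]), while indisulam was higher and the combination higher still. PFKFB4 was called higher with indisulam (1.33 [1.10 to 1.56]), with the combination (2.35 [2.13 to 2.57], or 5.09-fold), for the combination against palbociclib (2.27 [2.05 to 2.48]) and against indisulam (1.02 [0.88 to 1.16]). The last of these was 2.03-fold, just past the threshold. UCN2, which overlaps 4.88% of the PFKFB4 exons on the same strand, had 24, 89, 189 and 284 counts in the same libraries, and its part in the result was not tested. PFKFB3, the paralog, moved little, at 43.8 CPM in untreated cells and 42.2, 37.5 and 35.5 CPM in the treated libraries. PDK1, a kinase that shuts off pyruvate dehydrogenase, lay between 24.4 and 36.6 CPM and was not called.

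The HIF targets outside metabolism were spread to both sides of the untreated level with either single drug and lay mostly above the single drugs in the combination. Their median log2 ratio was -0.02 with palbociclib (0.01 when mitochondrially encoded genes were left out of the totals), 0.10 with indisulam and 0.40 with the combination, beside -0.02, 0.06 and 0.05 over all tested genes. A ratio above 1 was found for 6, 7 and 10 of 13. Against palbociclib the combination had a median of 0.51 with 12 of 13 above 1, and against indisulam 0.36 with 10 of 13 above 1, where the medians over all tested genes were 0.07 and -0.01. The bound was exceeded upward by 5 of 13 in each of these comparisons (38.5%), against 16.4% and 8.96% of tested genes. Downward it was exceeded by 0 of 13 against palbociclib, where 12.5% of tested genes did so. Against indisulam, VEGFA and MXI1 exceeded it downward (15.4%, against 8.55% of tested genes). BNIP3 against palbociclib (0.57) and MXI1 against indisulam (-0.54) passed by little. Under at least 1 other scaling they fell short, at 0.48 and -0.50, where 2 bounds make 0.52. CA9 is 1 of the 5 against indisulam, with a bound set by its mean of 8.82 CPM over all 4 libraries. In the 2 libraries compared it had 1.74 and 3.34 CPM. At 1 to 5 CPM, 2 bounds make 1.25, which its log2 ratio of 0.92 does not reach. The 2 comparisons share the combination library, so a deviation of that library would enter both. The summed level of the 13 genes was 923 CPM in untreated cells, 926 with palbociclib, 1499 with indisulam and 1503 with the combination, and VEGFA supplied the largest part of the rise.

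CA9 fell most of all members. It encodes a carbonic anhydrase of the cell surface that helps cells keep their pH, and it is a widely used marker of HIF activity. CA9 had 326 counts in untreated cells, 54 with palbociclib, 29 with indisulam and 48 with the combination, or 26.0, 4.25, 1.74 and 3.34 CPM. The untreated library was far above the 3 treated ones, among which indisulam was the lowest. CA9 was called lower with palbociclib (log2 ratio -2.59 [-3.00 to -2.18], or 6.02-fold), with indisulam (-3.85 [-4.39 to -3.31], or 14.4-fold) and with the combination (-2.93 [-3.36 to -2.50], or 7.63-fold). ARHGEF39 covers 35.7% of the CA9 exons on the opposite strand and had 64, 17, 96 and 31 counts. Whether the counting used strand was not given, so the part of this overlap in the CA9 values was not tested. All 3 ratios rest on the 1 untreated library.

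VEGFA and ADM, which encode secreted signals to blood vessels, rose most where indisulam was present. VEGFA (chr6:43770184-43786487, plus strand, GRCh38), the main vascular growth factor, had 2053 counts in untreated cells, 2759 with palbociclib, 10802 with indisulam and 5698 with the combination, or 164, 217, 646 and 397 CPM. It was called higher with indisulam (log2 ratio 1.98 [1.91 to 2.05], or 3.95-fold) and with the combination (1.28 [1.21 to 1.35]). The combination was lower than indisulam by 1.63-fold (-0.70 [-0.75 to -0.66]), which exceeded the bound but not the threshold. ADM, the vasodilator peptide adrenomedullin, had 61.3 CPM in untreated cells, 103 with palbociclib, 177 with indisulam and 188 with the combination. It was called higher with indisulam (1.53 [1.41 to 1.64]) and with the combination (1.61, or 3.06-fold). Its log2 ratio with palbociclib was 0.74 [0.62 to 0.87], past the bound.

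The oxygen-sensing EGLN enzymes and the collagen prolyl hydroxylases had their highest levels, or nearly so, in the combination. EGLN3, a HIF prolyl hydroxylase that HIF itself induces, had 420 counts in untreated cells, 737 with palbociclib, 728 with indisulam and 1188 with the combination, or 33.5, 58.1, 43.6 and 82.7 CPM. It was called higher in the combination against untreated, at 1.30 [1.14 to 1.46]. EGLN1, the principal HIF prolyl hydroxylase, had 43.4, 44.9 and 40.2 CPM in untreated, palbociclib and indisulam cells and 62.3 CPM in the combination. The combination library alone stood apart for EGLN1, with no call. P4HA2 (chr5:132190147-132295315, minus strand, GRCh38), a catalytic subunit of the enzyme that hydroxylates collagen, also stood apart in the combination, with 1581 counts in untreated cells, 1435 with palbociclib, 2069 with indisulam and 3299 with the combination, or 126, 113, 124 and 229.7 CPM. It was called higher for the combination against palbociclib, at 1.02 [0.93 to 1.11] or 2.03-fold, a call lost under 3 of 4 other scalings (0.92 with TMM, 0.97 with upper-quartile and 0.94 with median-of-ratios factors). P4HA1, its paralog, was lower with each single drug, at 130.1 CPM in untreated cells, 83.4 with palbociclib, 80.0 with indisulam and 122 with the combination. Its log2 ratios to untreated were -0.64, -0.70 and -0.10.

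The other HIF targets gave no call. BNIP3 and BNIP3L, receptors of mitophagy, had between 51.5 and 76.7 CPM and between 106 and 137 CPM, each highest in the combination. BNIP3 has 44 annotated pseudogenes by symbol. NDRG1, a stress-responsive gene, ran from 63.2 CPM with palbociclib to 105 CPM in the combination (log2 ratio between these 0.73 [0.61 to 0.85]). KDM3A, a histone demethylase, and MXI1, an antagonist of MYC, were both highest with indisulam, at 63.6 and 56.9 CPM. ANKRD37 was at the edge of detection with 25, 28, 28 and 38 counts, and a 2-fold difference could barely be seen at this depth. UFSP2 overlaps 40.3% of the ANKRD37 exons on the opposite strand and had between 321 and 563 counts.

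The 2 HIF alpha genes behaved differently. HIF1A, the general subunit, had 776 CPM in untreated cells, 738 with palbociclib, 795 with indisulam and 832 with the combination. The lowest and highest of these differed by a log2 ratio of 0.17 [0.13 to 0.21], less than the bound. EPAS1 (chr2:46293667-46386697, plus strand, GRCh38), which encodes HIF-2 alpha, had 1329 counts in untreated cells, 1441 with palbociclib, 3067 with indisulam and 3716 with the combination, or 106, 114, 184 and 259 CPM. The libraries with indisulam were the high ones. EPAS1 was called higher in the combination against untreated (1.29 [1.20 to 1.38]) and against palbociclib (1.19 [1.10 to 1.28]). With indisulam alone its log2 ratio was 0.79 [0.70 to 0.89], past the bound and under the threshold.

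The layout gave each drug effect in 2 pairs of libraries that share none. For indisulam, in the absence and then in the presence of palbociclib, PFKFB4 was higher in both pairs (log2 ratios 1.33 and 2.27), as were ADM (1.53 and 0.87), VEGFA (1.98 and 0.87), EPAS1 (0.79 and 1.19) and ENO2 (0.70 and 1.45). HK2 was lower in both (-1.21 and -0.66), as was ALDOC (-1.86 and -0.66). CA9 differed between the pairs, with -3.85 without palbociclib and -0.34 [-0.90 to 0.21] with it. For palbociclib, EGLN3 was higher in both pairs (0.79 and 0.92) and ALDOC lower in both (-1.87 and -0.67). GAPDH had -0.56 without indisulam and -0.12 with it, and HK1 had -0.54 and 0.31. CA9 and P4HA1 had opposite signs, at -2.59 and 0.92 [0.26 to 1.57] for CA9 and at -0.64 and 0.61 [0.50 to 0.71] for P4HA1. The second CA9 ratio rests on 29 and 48 counts.

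**Figure D3:**
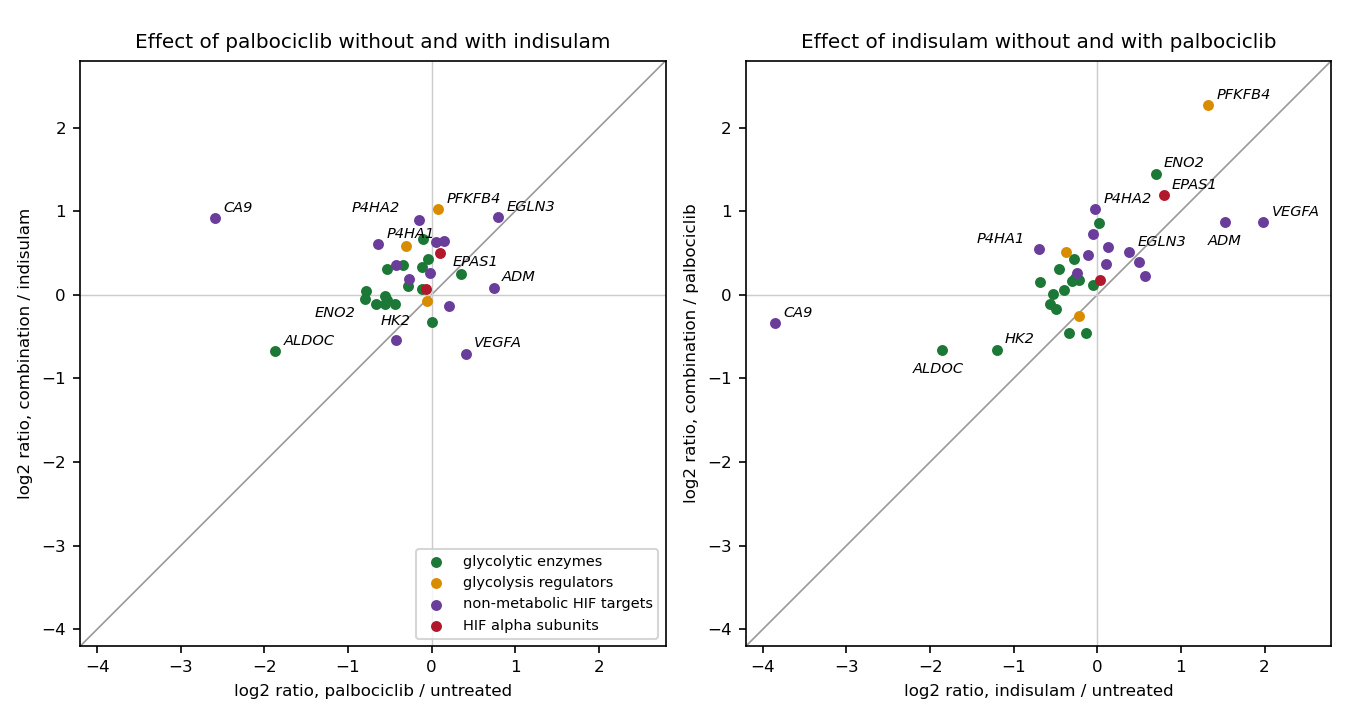
Log2 ratio of palbociclib (left) and indisulam (right) for each of the 35 members, without the other drug on the horizontal axis and in its presence on the vertical axis, with the diagonal marking equal effects and colours marking the role. On the left most points lie above the diagonal and CA9 stands alone at -2.59 and 0.92, while on the right PFKFB4, ENO2, EPAS1, ADM and VEGFA are above 0 on both axes.

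The departure from additivity was above 0 for 28 of the 35 members (80.0%), against 50.5% of tested genes, and for 15 of 17 enzymes, against 54.0% of tested genes at 100 CPM or more. The combination was therefore mostly less low, or higher, than the single drugs would add up to. The departure exceeded 2 robust SDs for 11 members (31.4%), against 8.05% of tested genes. Since the members were chosen with earlier results of these data known, this excess is no independent evidence. Among the 11, the departure was positive for HK1, PFKP, ALDOC, ENO2, PFKFB4, PDK1, CA9, NDRG1, P4HA1 and P4HA2, from 0.75 to 3.51. It was negative for VEGFA alone (-1.11 [-1.21 to -1.02]). The untreated and the combination library both enter the departure with a plus sign, so a high member level in either raises it for many members together. The part of single libraries in this count was not tested.

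The balance of paralogous genes was compared within each library, where the scaling has no part. HK1 had 1.68 counts for each count of HK2 in untreated cells, 1.83 with palbociclib, 2.40 with indisulam and 3.23 with the combination. ALDOA had 26.8 counts for each of ALDOC in untreated cells and 72.2, 69.1 and 102 in the treated libraries. The pair of PFKFB3 and PFKFB4 turned over, from 2.88 counts of PFKFB3 for each of PFKFB4 in untreated cells and 2.63 with palbociclib to 0.980 with indisulam and 0.457 with the combination. In log2 units its ratio shifted by -2.66 [-2.94 to -2.38] from untreated to the combination, the largest shift of the 11 pairs. ENO1 to ENO2 went from 150 and 181 without indisulam to 74.7 and 73.8 with it. HIF1A to EPAS1 went from 7.33 in untreated cells over 6.50 with palbociclib and 4.33 with indisulam to 3.21 with the combination. P4HA1 to P4HA2 took the values 1.03, 0.737, 0.646 and 0.530 in the same order of libraries, and EGLN1 to EGLN3 the values 1.30, 0.773, 0.923 and 0.753. PFKP to PFKL fell below 1 only with palbociclib, at 0.847 against 1.87, 2.41 and 2.097. LDHA to LDHB stayed between 1.27 and 1.56, and BNIP3 to BNIP3L between 0.485 and 0.588.

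**Figure D4:**
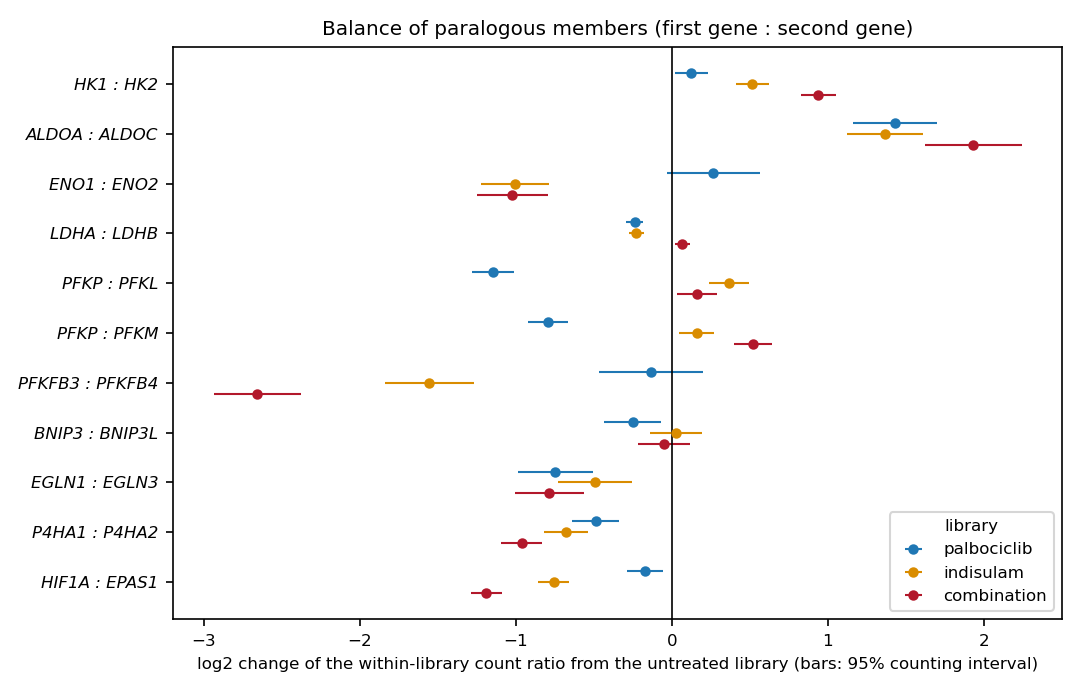
Log2 change from the untreated library of the within-library count ratio (horizontal axis) for 11 pairs of paralogous members (vertical axis, first gene to second), with bars for the 95% counting interval. The ratio of ALDOA to ALDOC moves right in all treated libraries, and those of PFKFB3 to PFKFB4 and HIF1A to EPAS1 move left, most in the combination.

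Levels between genes were compared per kilobase of exon. On that scale GAPDH (2226 CPM per kb) and ENO1 (557 CPM per kb) led in untreated cells, and they held ranks 1 and 2 in every library. PFKFB3 was the highest regulator (7.16 CPM per kb), P4HA1 the highest HIF target (42.1 CPM per kb) and HIF1A (151 CPM per kb) stood above EPAS1 (14.5 CPM per kb). By the length of the main annotated transcript in place of all exons, an alternative chosen after the data were seen, LDHA stayed below LDHB as it did per kilobase of all exons, but the order of EGLN1 and EGLN3 and that of BNIP3 and BNIP3L turned round, as did that of P4HA1 and P4HA2 in the combination library.

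Other genes of the same pathways were read for context in the combination against untreated, where 12.9% of tested genes were called higher and 10.5% lower. Of 13 tested further enzymes of glycolysis and gluconeogenesis, 3 were called higher and 5 lower. PC, pyruvate carboxylase, fell from 4001 counts in untreated cells over 1744 with palbociclib and 788 with indisulam to 230 (log2 ratio -4.31 [-4.50 to -4.12]). LDHD, the lactate dehydrogenase for the D form, had 59, 27, 3 and 4 counts in the same order of libraries (-3.77 [-5.08 to -2.46]). TIGAR, a sugar bisphosphatase that p53 induces, had 46, 139, 87 and 179 counts (1.75 [1.28 to 2.21]). It was already called higher with palbociclib alone (1.56 [1.08 to 2.04]). HKDC1, a hexokinase-like gene, had 4, 5, 17 and 39 counts (2.84 [1.48 to 4.19]).

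In transport, 1 of 12 tested genes was called higher and 1 lower. These were the glucose transporter genes SLC2A6 (73 to 341 counts, 2.02 [1.65 to 2.38]) and SLC2A4 (29 to 4 counts, -2.77 [-4.13 to -1.40]). Of 13 genes of the pyruvate dehydrogenase complex and its control, 1 was called higher and 1 lower. The phosphatase subunit PDP1, which switches the complex on, had 723 counts in untreated cells, 603 with palbociclib, 2978 with indisulam and 1781 with the combination (1.11 [0.98 to 1.23]), and the opposing kinase PDK4 had 284, 72, 160 and 32 (-3.30 [-3.82 to -2.78]). The pentose phosphate pathway, which branches from glycolysis to make NADPH and ribose, had 0 of 6 genes called higher and 2 lower. TKT, transketolase, had 19416, 7698, 15672 and 6844 counts (-1.70 [-1.74 to -1.66]), and PGLS, a lactonase, had 555, 526, 308 and 248 counts (-1.35 [-1.57 to -1.14]). In TKT the 2 libraries with palbociclib were the low ones.

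In the HIF machinery, 1 of 12 tested genes was called higher and 0 lower. That gene, ARNT2, encodes an alternative partner of HIF alpha and had 9 counts in untreated cells, 115 with palbociclib, 722 with indisulam and 868 with the combination (6.26 [5.36 to 7.17]). ARNT, the usual partner, was picked after its values were seen and had 1030, 725, 1202 and 623 counts (-0.92 [-1.06 to -0.77]). Of 36 other tested HIF targets, 8 were called higher and 3 lower, with a median log2 ratio of 0.28 beside 0.05 over all tested genes. ANGPTL4, a secreted inhibitor of lipoprotein lipase, had 32, 37, 59 and 188 counts (2.33 [1.79 to 2.86]), and STC2, a secreted glycoprotein, had 1155, 1251, 6747 and 6386 counts (2.27 [2.18 to 2.36]). Lower were DDIT4, an inhibitor of mTOR signalling, with 5457, 2391, 3836 and 1737 counts (-1.84 [-1.92 to -1.77]), and GYS1, the muscle-type glycogen synthase, with 1098, 1045, 689 and 427 counts (-1.55 [-1.72 to -1.39]). Against palbociclib, the combination called 10 of the 36 higher and 1 lower, where 9.56% and 7.38% of tested genes were called.

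**Figure D5:**
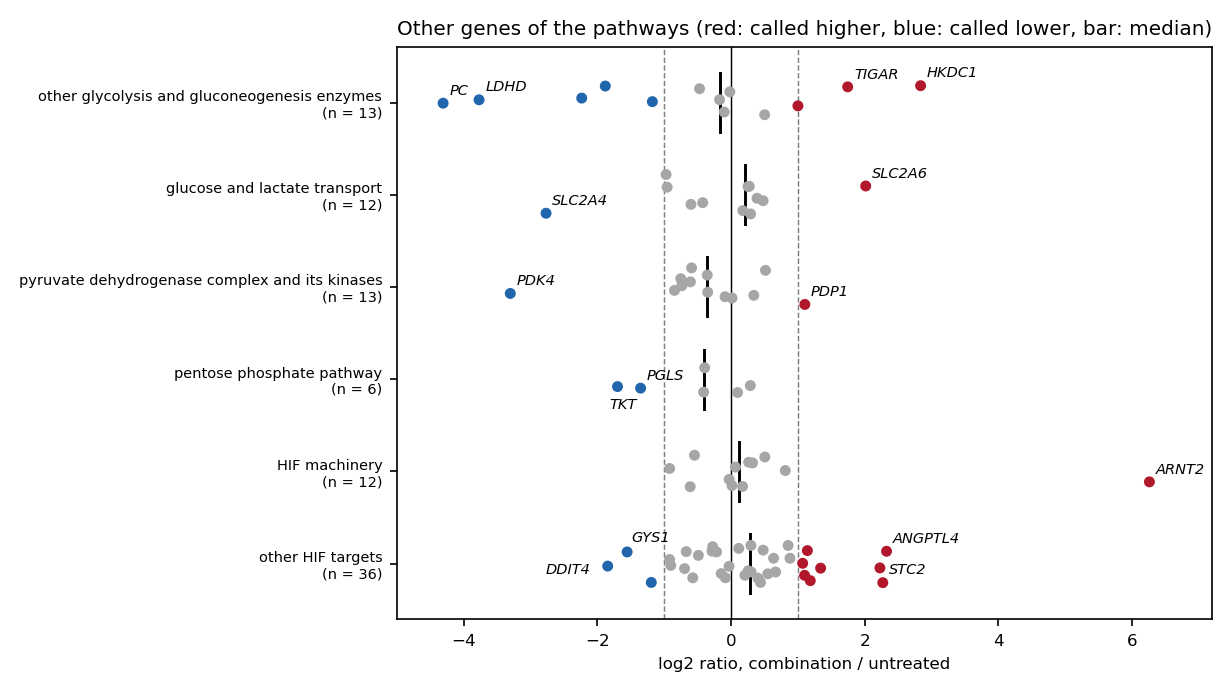
Log2 ratio of combination to untreated (horizontal axis) for the tested genes of 6 further lists of the pathways (vertical axis), with red points called higher, blue points called lower, grey points not called, black bars at the list medians and dashed lines at 2-fold. PC, LDHD, PDK4 and SLC2A4 lie far to the left, ARNT2 lies far to the right at 6.26, and the list medians lie between -0.40 and 0.28.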

How the data were processed

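RNA-seq of 4 SUM159 libraries was analysed, 1 per condition, grouped by the labels. Per the labels' processing notes, the authors used TopHat2 2.1, HTSeq and GRCh38, and the deposited values are unnormalized read counts per Ensembl gene. The annotation release and the use of strand in counting were not given in the sources used here. Library preparation selected poly(A) RNA and kept strand. The tallies of reads outside genes were left out. As shares of gene counts plus all tallies, 0.615% to 0.694% had no feature. Ambiguous reads took 2.41% to 2.63%, and reads that were not unique took 6.46% to 6.84%.

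Counts were scaled to the mean library total, with a pseudocount of 1 scaled count in each log2 ratio. Genes with a mean of at least 1 CPM were tested. Intervals cover Poisson counting error only. Reads are not independent molecules, so the true counting error may be larger. The calculation was tested on simulated data. No p-value was computed because each condition had 1 library.

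Members and lists were chosen with earlier results of these data known. Members were named in full when called in any comparison, when highest per length in their group, or when in a paralog pair. From each further list, the 2 highest and 2 lowest called genes were named, and 1 listed gene is not reported here. Positions and lengths came from GENCODE 44. Python 3.11.15, pandas 2.3.3, edgeR 4.0.16 and DESeq2 1.42.0 (factors only) were used. Alternatives changed scaling, pseudocount, threshold, filter and the mean for the median.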

Additional observations from a re-analysis of the deposited data

Results flagged for a closer look

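For CA9 and P4HA1 the log2 ratio of palbociclib had opposite signs without and with indisulam, each at 1.5-fold or more. For CA9 it was -2.59 (palbociclib over untreated) and 0.92 [0.26 to 1.57] (combination over indisulam), the latter from 48 and 29 counts. For P4HA1 it was -0.64 and 0.61 [0.50 to 0.71]. With 1 library per condition, the difference between the 2 effects was not tested.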

How the results depend on the processing

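Across 4 other scalings, 2 other pseudocounts, a filter of 5 CPM or none, and the mean in place of the median, all 170 recomputed values that answer a comparison stayed within the limits set for them, and the only median over enzymes or HIF targets to change sign was that of the HIF targets with palbociclib, from -0.02 to 0.01 without mitochondrially encoded genes in the totals. The fold threshold moved 13 counts of called members. At 1.5-fold, members higher and lower were 2 and 6 for palbociclib against untreated, 5 and 5 for indisulam against untreated, 8 and 2 between combination and palbociclib and 7 and 2 between combination and indisulam, and 5 were lower for the combination against untreated. In the same order, 12.6% and 12.2%, 17.2% and 14.2%, 18.4% and 14.5%, 12% and 10.2%, and 19.4% of tested genes were called. At 3-fold, members higher were 1 for indisulam and 2 for the combination against untreated, 1 for the combination against palbociclib and 0 for the combination against indisulam, with 3.56%, 6.37%, 4.1% and 1.61% of tested genes. Of values of the 10 called members and of paralog pairs, 344 stayed within their limits and 11 moved by more than their counting error, all of them for VEGFA, ADM, P4HA2 and EPAS1. The 25 members without a call were not in this count, and abundant ones also moved past their counting error. GAPDH with indisulam against untreated went from -0.560 [-0.576 to -0.544] to -0.632 at the lowest scaling, and PKM from -0.400 [-0.424 to -0.377] to -0.473. P4HA2 in the combination against palbociclib was below 2-fold under TMM (0.92), upper-quartile (0.97) and median-of-ratios (0.94) factors. Under TMM factors, 14 of 17 enzymes in place of 11 had a ratio below 1 in the combination against untreated. Small ratios changed sign under another scaling for GPI, PFKP, PKM, LDHA, LDHB, BNIP3L and HIF1A. No paired analysis was possible because each condition had 1 library. Depth limits ANKRD37 and CA9 most, and the lack of replicates limits every ratio.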
